A study of Arabidopsis thaliana with 3 samples.

Results

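The dehydrins HIRD11 (AT1G54410) and COR47 (AT1G20440) gave some of the strongest signals on arrays made from sorted cells of the Arabidopsis root quiescent center (QC), the rarely dividing cells at the core of the root stem cell niche. Every probe set naming either gene was taken, which gave 2 of the 22810 probe sets on the array, 262958_at for AT1G54410 and 259570_at for COR47, and so 2 of the 13355 genes measured. Both genes were chosen by their high MAS5 signal on these same arrays, so their levels are described here without a test. Both entered the fit over all genes, but their own calls carry no weight. All 3 arrays belong to a single group, protoplasts of the Col-0 line WOX5:GFP, taken from roots 5 days after stratification. The line carries GFP driven by the WOX5 promoter, and GFP-positive protoplasts were sorted straight into extraction buffer, so every value comes from cells whose walls had been digested and that had passed the sorter. There was no other cell type, stress treatment or undigested root for a contrast, and an effect of digestion or sorting cannot be told apart from one of cell type. Nothing in the labels tells if separate plants were used for each sample, and the spread and p-values then cover only these samples, whose differences may be technical. Each array averages many cells, and more cells with a transcript cannot be told apart from more transcript per cell.

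Dehydrins are a group of the late embryogenesis abundant (LEA) proteins, which are hydrophilic and largely unfolded in solution. They share a lysine-rich stretch, the K-segment, that can fold against membranes and other proteins, and they are known for accumulating in maturing seeds and in vegetative tissue exposed to cold, drought, salt or abscisic acid. HIRD11 is a small histidine-rich dehydrin that binds metal ions such as copper and can lower the formation of reactive oxygen species. COR47, also called RD17, is an acidic dehydrin of the cold-induced genes controlled by the CBF transcription factors. It lies next to its close relative ERD10 on chromosome 1, which also carries HIRD11.

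HIRD11 had a MAS5 signal of 14647, 17251 and 15443 on replicates 1 to 3, with a mean of 15780 ± 1334 (SD, n = 3). MAS5 signal is a linear intensity computed for each probe set, scaled so that the arrays have a common mean. The deposited signal was highest in replicate 2, and the highest and lowest arrays differed 1.18-fold. The HIRD11 probe set ranked 6th, 8th and 5th by signal among all probe sets on replicates 1 to 3. Most probe sets above it were spiked controls, and without control probe sets its ranks were 2, 1 and 1. Among probe sets that name 1 gene it ranked 1 on every array.

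COR47 had a signal of 10275, 12955 and 10716 on replicates 1 to 3, with a mean of 11315 ± 1437 (SD, n = 3). As for HIRD11, replicate 2 was the highest, and the arrays spanned 1.26-fold. The COR47 probe set ranked 15th, 12th and 13th among all probe sets on replicates 1 to 3, and 9th, 5th and 7th without control probe sets. Among probe sets that name 1 gene it ranked 6, 3 and 4, so named genes other than HIRD11 also lay over it. These ranks describe how the genes were chosen. Signal depends on how well each probe set binds its target, so the ranks do not order transcripts by abundance, and the values of HIRD11 and COR47 were not set against each other. Whether the COR47 probes also bind transcripts of its close relative ERD10 was not examined.

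**Figure D1:**
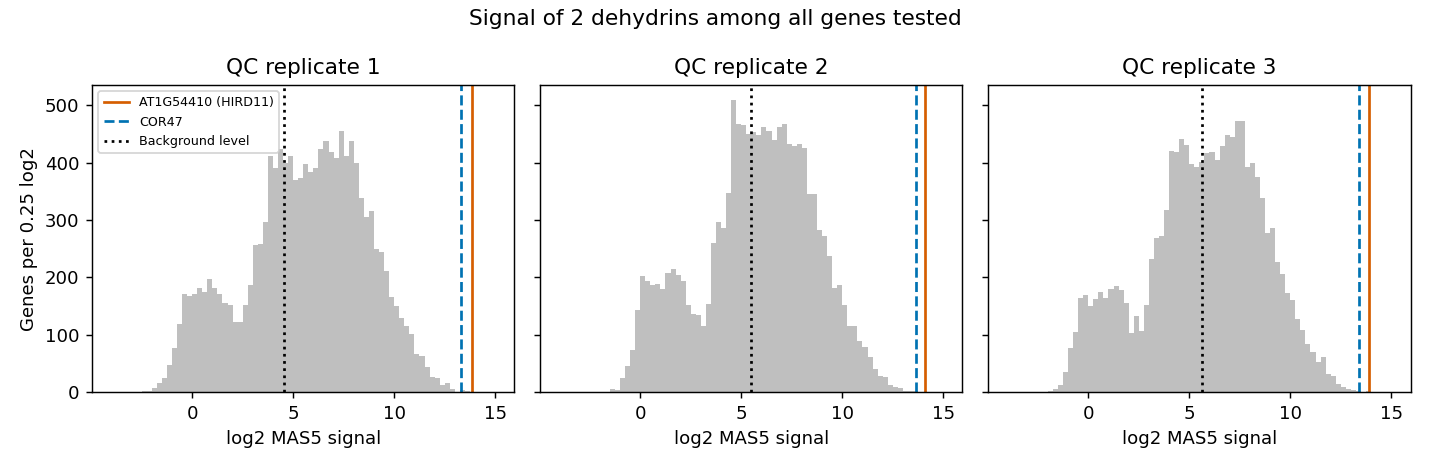
Histograms of log2 MAS5 signal (x axis) for the 13349 genes tested, in bins of 0.25 log2 (y axis, genes per bin), for each QC replicate. Solid orange lines mark HIRD11, dashed blue lines mark COR47 and dotted lines mark the background level, and both dehydrins lie at the far right end of the distribution on each of the 3 arrays.

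The probe sets on either side show what else lay near both genes by mean signal. The probe set just below HIRD11 by mean signal was 259516_at, for which no gene is named in the annotation used here, at 14781, 16027 and 14650 on replicates 1 to 3. The probe set just above HIRD11 by mean signal was a spiked bacterial control, at 10280, 25794 and 12167. That control lay over HIRD11 in replicate 2 only. COR47 lay between 267153_at, again without a named gene, at 11482, 11910 and 11295, and another spiked control at 7655, 17350 and 7750. Some probe sets with no named gene thus gave signals like those of both dehydrins. Replicate 2 had more signal in all 18 spiked control probe sets (median 2.13-fold over the mean of the other arrays), and these controls reached the highest signal on each array. HIRD11 reached 45.8%, 24.6% and 43.7% of that highest signal on replicates 1 to 3, and COR47 reached 32.2%, 18.5% and 30.3%.

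The signal was next placed against the array as a whole. On replicates 1 to 3 HIRD11 lay 191-fold, 212-fold and 190-fold over the median probe set. COR47 lay 134-fold, 159-fold and 132-fold over it. A background level was taken from 6 genes of pollen, tapetum and shoot meristem (ANX1, ANX2, MGH3, A9, AMS and CLV3) as the 90th percentile of their log2 signal, which came to a signal of 23.6, 44.9 and 49.0 on replicates 1 to 3. AMS was the highest of the 6 on each array (48.4, 59.7 and 99.4), and the level lay between it and the next highest gene. The log2 difference from that level was 9.28, 8.59 and 8.30 for HIRD11, with a mean of 8.72 ± 0.50 (SD, n = 3). It was 8.77, 8.17 and 7.77 for COR47, with a mean of 8.24 ± 0.50 (SD, n = 3). For both genes this difference was largest in replicate 1, where the gene's own signal was lowest and the background level was lowest too. The SD of the log2 signal itself was 0.12 for HIRD11 and 0.18 for COR47, so most of the ± values came from the background level. A gene was called above background where limma gave an adjusted p under 0.05 and a positive difference, and 45.3% of the 13349 genes tested were called above and 25.6% below. In this main fit the spread behind each p-value was a variance trend over all genes, so no p-value measures the ± printed beside it. The error of the background level is shared by all genes, and the p-values do not allow for that sharing. With AMS left out of the panel, 6851 genes were called above rather than 6050. The rule that chose both dehydrins used the same signal, so no p-value is given for them.

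Few other dehydrins had a probe set under their own name in the annotation used here. Of the 10 dehydrin genes of Arabidopsis, 6 had a probe set naming 1 gene, and ERD10, ERD14, XERO1 and RAB18 were not analysed here. Whether any of the 8730 probe sets with no named gene measures them was not examined. Among the 4 measured beside HIRD11 and COR47, 2 were above background and 2 below, against 45.3% above and 25.6% below over all genes tested. Their median was 1.73 log2 over background, against 0.62 for all genes tested. With so few genes these counts describe the 4 genes and not the family.

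Both dehydrins called above had high signal on every array. LTI30 (AT3G50970, also called XERO2), a dehydrin that binds membranes and is induced by low temperature, had a signal of 2322, 2440 and 2244 on replicates 1 to 3. Its mean difference from background was 5.97 ± 0.58 log2 (SD, n = 3, adjusted p = 5.14e-28 by limma) and its arrays spanned 0.12 log2. AT4G38410, annotated as a dehydrin of less studied function, had a signal of 2073, 2292 and 3086. Its signal was highest in replicate 3, with a range of 0.57 log2. Its difference from background was 6.04 ± 0.39 log2 (SD, n = 3, adjusted p = 6.35e-28 by limma). Without the variance trend the limma adjusted p was far larger, 9.78e-07 for LTI30 and 8.41e-07 for AT4G38410, and both calls held.

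The other dehydrins were near the bottom of the arrays. AT2G21490, a dehydrin whose symbol is LEA, had a signal of 1.83, 36.1 and 1.96 on replicates 1 to 3. It lay -2.88 ± 2.28 log2 from background (SD, n = 3, limma adjusted p = 0.00688), and its arrays spanned 4.31 log2. That p used the spread of the variance trend and not the SD of 2.28. AT4G39130 had a signal of 2.33, 14.1 and 8.67, a difference of -2.50 ± 0.83 log2 (SD, n = 3, limma adjusted p = 0.0146). Both genes were under the background level on each array. Signals this low vary widely between arrays, and a call below background does not mean that a gene was silent. Neither call below background held without replicate 1 (limma adjusted p = 0.0608 for LEA and 0.092 for AT4G39130) or without replicate 3 (0.112 and 0.0548 by limma), and neither held with 3 of the other background levels tried.

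**Figure D2:**
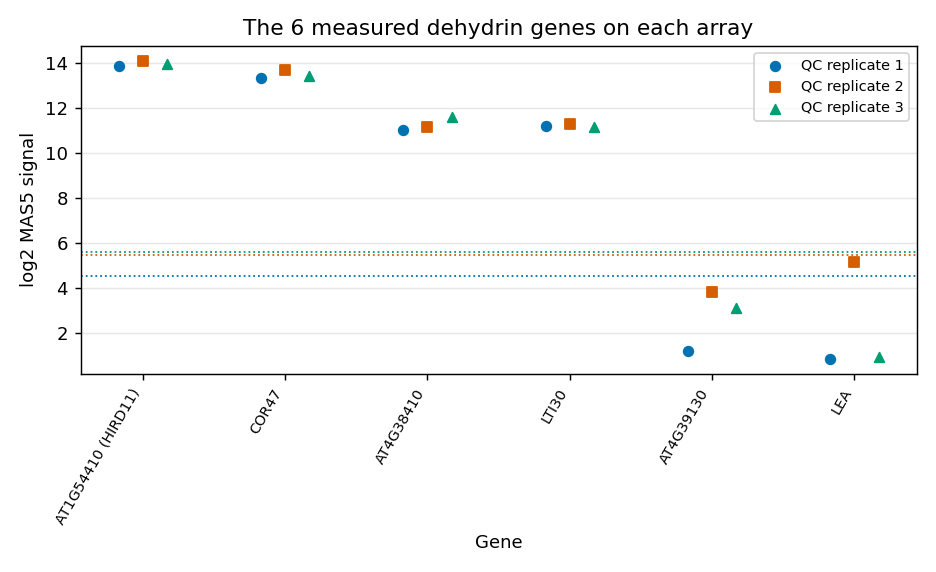
Log2 MAS5 signal (y axis) of the 6 measured dehydrin genes (x axis) in QC replicate 1 (circles), 2 (squares) and 3 (triangles), with the background level of each replicate as a dotted line in the same colour. HIRD11, COR47, AT4G38410 and LTI30 lie above the level on all 3 arrays, and AT4G39130 and LEA lie below it on all 3.

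LEA proteins outside the dehydrins were examined in the same way. They are likewise hydrophilic proteins of seeds and dehydrated tissue. Of 39 listed genes 29 were measured, of which 11 were above background, 13 were not called and 5 were below. The share above was read beside 45.3% of all genes tested, and the median of the list was -0.10 log2, against 0.62 over all genes tested. The count above was thus close to that of genes in general, and nothing particular to the list is read from it.

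The 4 genes highest over background all lay far over the background level on each array. AT2G44060 (LEA26) had 4154, 4124 and 3610 on replicates 1 to 3 and lay 6.73 ± 0.65 log2 over background (SD, n = 3, adjusted p = 7.42e-26 by limma). AT2G23120 had 3285, 4270 and 4345 and lay at 6.72 ± 0.35 (limma adjusted p = 6.94e-26). AT3G53040, at 2604, 3283 and 3287, lay at 6.35 ± 0.38 (limma adjusted p = 3.3e-27), and AT5G60530, at 1787, 2789 and 2842, lay at 6.02 ± 0.20 (limma adjusted p = 6.03e-28). In AT2G23120, AT3G53040 and AT5G60530 replicate 1 was the lowest in the deposited values, while in AT2G44060 replicate 3 was.

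The lowest 2 genes were LEA18 (AT2G35300) and AT5G27980. LEA18 had a signal of 3.51, 3.71 and 2.98 and lay -3.46 ± 0.66 log2 from background (SD, n = 3, limma adjusted p = 0.00196). AT5G27980 had 2.09, 25.1 and 3.31, a difference of -2.74 ± 1.66 (limma adjusted p = 0.00915), and its call did not hold without replicate 1 or without replicate 3 (limma adjusted p = 0.0691 and 0.0894). The signal of LEA18 was low on every array, whereas that of AT5G27980 rested on which array was read.

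**Figure D3:**
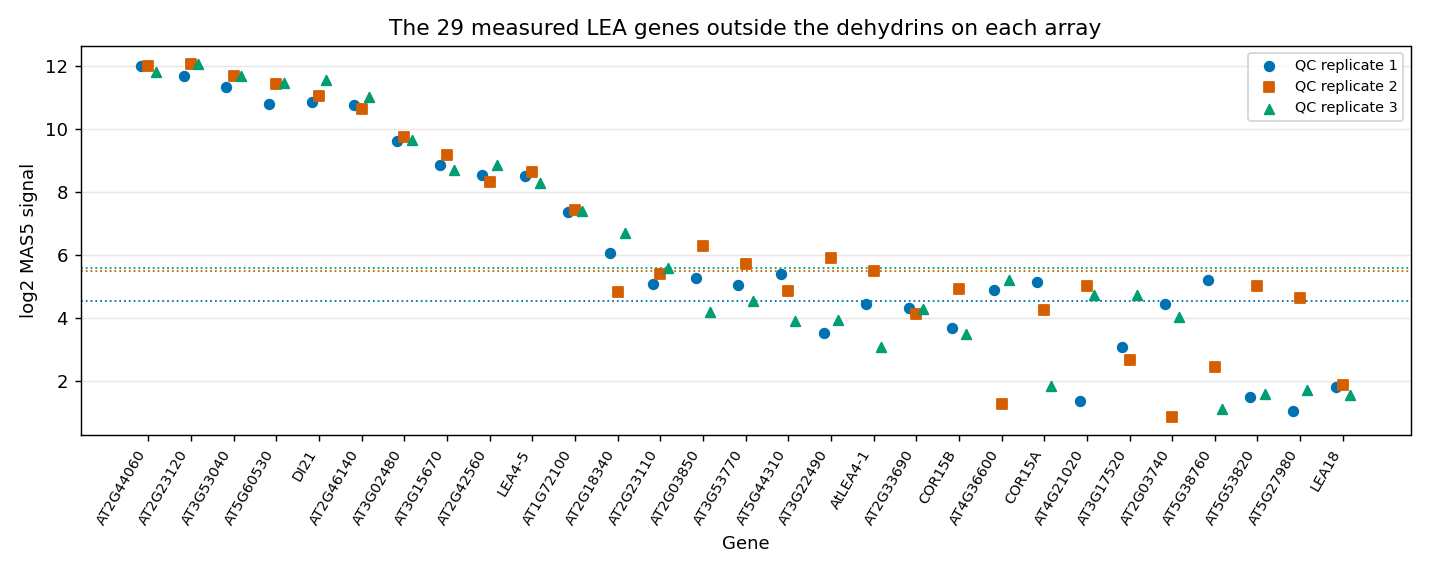
Log2 MAS5 signal (y axis) of the 29 measured LEA genes outside the dehydrins (x axis), in order of their mean difference from background, in QC replicate 1 (circles), 2 (squares) and 3 (triangles), with each replicate's background level as a dotted line. The 11 genes at the left, from AT2G44060 to AT1G72100, were called above background, and the points of the other genes scatter more widely between arrays.

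A pair of cold-induced LEA genes was named after its values were seen, because COR15A and COR15B, like COR47 and LTI30, belong to the genes induced by cold through CBF factors. They encode proteins that protect chloroplast membranes during freezing. COR15A (AT2G42540) had a signal of 35.4, 19.2 and 3.63 on replicates 1 to 3, and COR15B (AT2G42530) had 12.9, 30.8 and 11.3. COR15A was over the background level in replicate 1 and under it in the others, and COR15B was under it on all arrays. COR15A lay at -1.46 ± 2.18 log2 and COR15B at -1.18 ± 0.83 log2 from background (SD, n = 3), and neither was called (limma adjusted p = 0.101 and 0.167). LTI30 was called above background and neither COR15 gene was called, but these genes were not tested against each other. Because the pair was named with its values known, nothing about cold-induced genes in general is read from these calls. COR47 is left out here because it was chosen by its signal.

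Regulators and partners of the dehydrins were covered thinly. Of 35 genes of cold signalling and response, 2 were measured and both were above background, a call that 45.3% of all genes tested shared, so nothing is read from the count. SIZ1, a SUMO ligase that modifies the cold regulator ICE1, lay at 1.81 ± 0.77 log2 (SD, n = 3, limma adjusted p = 3.81e-05), and STZ (also called ZAT10), a zinc finger repressor that responds to cold and salt, lay at 4.14 ± 0.26 (limma adjusted p = 4.94e-24). The CBF factors were not analysed here, nor was any of 24 listed genes of the ERD and RD dehydration series or of 45 listed genes of abscisic acid synthesis and signalling (0 measured in each list).

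Casein kinase CK2 phosphorylates acidic dehydrins such as COR47 in vitro. Of its 8 listed subunit genes 1 was measured, AT2G23070, a catalytic subunit of the chloroplast. It had a signal of 1963, 2712 and 1776 on replicates 1 to 3 and lay 5.83 ± 0.60 log2 over background (SD, n = 3, adjusted p = 4.05e-28 by limma). Replicate 2 was its highest array in the deposited values. Because HIRD11 binds metals, 29 genes of metal binding and delivery were also listed, of which 2 were measured. The metallothionein gene MT1C had 2803, 2906 and 2928 (6.27 ± 0.54 log2 over background, limma adjusted p = 1.98e-27), and CCS, the copper chaperone of superoxide dismutase, had 554, 514 and 300.1 (3.56 ± 0.97, limma adjusted p = 1.65e-19). The arrays of MT1C spanned 0.06 log2, and CCS was lowest in replicate 3.

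The spread of HIRD11 and COR47 between arrays was then compared with that of other genes. The range, the highest minus the lowest log2 signal of the 3 arrays, was 0.24 for HIRD11 and 0.33 for COR47. It had a median of 0.81 over the other 13347 genes and of 0.31 over the 1333 other genes in the top 10% of signal. HIRD11 had a wider range than 33.9% of that top 10% and COR47 than 53.9%. Over the 132 other genes in the top hundredth of signal, closer to both dehydrins, the median range was 0.25. COR47 lay over that median and HIRD11 just under it. In the deposited values both were highest in replicate 2, as were 28.4% of the top 10%, 34.8% of the top hundredth and 36.8% of all other genes. In replicate 2 HIRD11 stood 0.20 log2 and COR47 0.30 log2 over the mean of the other arrays, against a median of -0.02 for the top 10%.

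The order of the arrays depended on the scaling for HIRD11. With each array centred on its median, replicate 2 stayed highest for both genes, and the ranges were 0.16 for HIRD11 and 0.27 for COR47. After quantile normalization, which gives each array the same set of values, HIRD11 was lowest in replicate 2 (13.72 log2, against 14.01 and 14.14 in replicates 1 and 3), and COR47 stayed highest there (13.51, against 13.40 and 13.46). With the control probe sets left out before that step, a choice made after the values were seen, HIRD11 lay at 13.89, 13.95 and 13.95. Quantile normalization sets each value by its rank on the array, so the order of either gene after that step restates its ranks. HIRD11 ranked 6th, 8th and 5th with control probe sets, which had more signal in replicate 2 where they were spiked. Its ranks without them were 2, 1 and 1. For HIRD11 no array was thus highest in every scaling, while COR47 was highest in replicate 2 in each scaling tried.

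**Figure D4:**
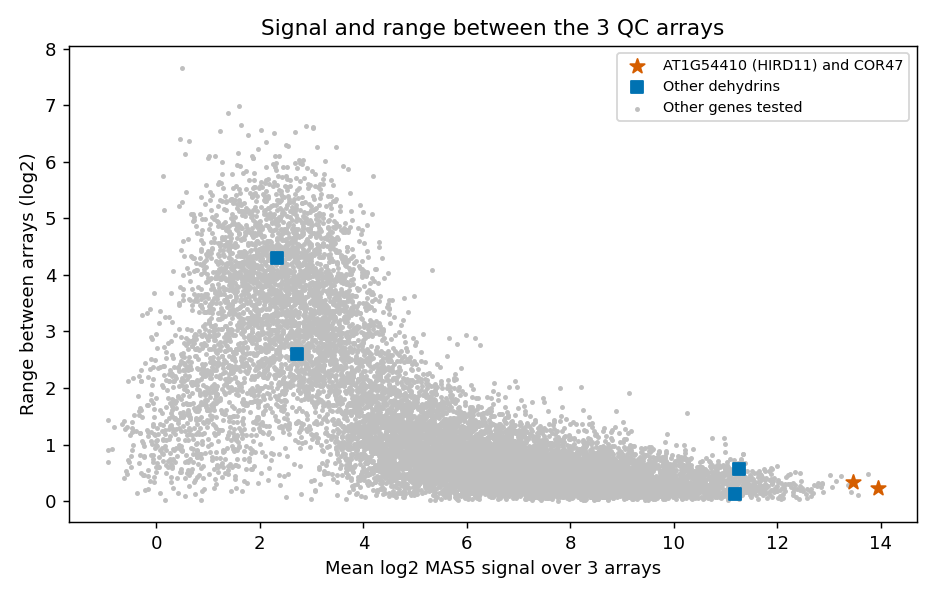
Range between the 3 QC arrays in log2 (y axis) against mean log2 MAS5 signal (x axis) for HIRD11 and COR47 (orange stars), the 4 other measured dehydrins (blue squares) and all other genes tested (grey points). HIRD11 and COR47 lie at the right end with ranges of 0.24 and 0.33, and the dehydrins below background, LEA and AT4G39130, have ranges of 4.31 and 2.60.

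Genes with a like course over the arrays were sought among the 6048 other genes above background, after each array was centred on its median. Likeness was measured as the root mean square distance between the deviations of 2 genes from their own means over the 3 arrays. The nearest to HIRD11 were AT3G50520 (distance 0.0026 log2), AT5G25080 (0.0042) and AT2G04700 (0.0049). The nearest to COR47 were AT1G16020 (0.0050), the cytochrome P450 gene CYP718 (0.0084) and AT3G05500 (0.0086). HIRD11 and COR47 lay 0.05 log2 from each other, and 894 genes (14.8%) lay within 0.1 log2 of HIRD11 and 702 (11.6%) within 0.1 log2 of COR47. With 3 arrays such closeness is common, and it is given as a description only.

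The labelled cell type was checked on its markers. Of 14 listed genes of the QC and stem cell niche 3 were measured (BBM, JKD and AGL42) and all were above background, with medians on single arrays from 6.60 to 7.11 log2 signal. WOX5 itself had no probe set naming it and was not analysed here. Of 12 measured markers of other root cells 8 were above background, with medians from 7.04 to 7.37, and 4 were not called. The 4 highest were LHW (3.61 log2 over background), the root hair genes EXPA18 (3.59) and EXPA7 (2.65), and the endodermis gene SGN3 (3.42). These lay over JKD (1.57) and AGL42 (1.14) and under BBM (3.77). The 2 lowest, LBD29 (-0.98) and CLE40 (0.08), were not called. Since 45.3% of all genes tested were above background, neither count tells the QC apart from other root cells, and the part of other cells in the signals of HIRD11 and COR47 was not tested.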

How the data were processed

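RNA from 3 samples of sorted WOX5:GFP protoplasts was amplified and labelled, and each sample was put on 1 ATH1 array (biotin label). The values the authors deposited are MAS5 signals, a linear intensity for each probe set. For MAS5 the version and detection calls are not stated in these sources. The trimmed mean was 250.0 on each array and the median from 76.9 to 81.4, so a change in total RNA cannot be seen. The log2 of each signal was taken without an offset. Gene names were those of the platform annotation, brought up to date by RefSeq (TAIR10.1, names only). Of 22810 probe sets, 13513 named 1 gene, 503 several, 8730 none and 64 were controls. Probe sets of 1 gene were averaged on the log2 scale, which gave 13355 genes. Each gene's log2 signal minus the background level of its array was tested against 0 in limma 3.58.1 under R 4.3.3 (intercept model, eBayes with trend, two-sided, Benjamini-Hochberg over all 13349 genes outside the panel). With infinite prior degrees of freedom, the spread of a gene was wholly that of the trend. The error of the background level is shared by all genes. The test was also tried on data simulated from the gene means and spread of the main fit. The simulated noise was independent for each gene, so it left out this shared error, and no result is drawn from it.

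The genes, lists, panel and tests were chosen with earlier results of these data known. Named were HIRD11, COR47 and the other measured dehydrins, all measured genes of lists with 6 or fewer, otherwise the 4 highest and 2 lowest, and the nearest 3 genes by pattern. Alternatives were other background levels, median centring, quantile normalization, omitting probe sets shared by several transcripts, an offset of 16, no variance trend, the highest probe set of a gene and leaving out each replicate. Precision is limited by how many arrays there were.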

Additional observations from a re-analysis of the deposited data

How the results depend on the processing

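The counts of genes above background ranged from 4602 to 7604 over all alternatives, around 6050, and those of LEA genes from 11 to 14. The count of 2 dehydrins above did not move in any alternative. Of the 2 cold response genes, 1 was above when the background was raised by 1 log2, a setting chosen after the data were seen, since SIZ1 was no longer called (limma adjusted p = 0.0676). The difference from background was 9.63 for HIRD11 (AT1G54410) and 9.14 for COR47 at the panel's 75th percentile, 9.72 and 9.235 with bacterial controls, 9.68 and 9.19 without AMS, 8.14 and 7.65 with the offset of 16, and 7.72 and 7.24 with the raised level; these follow from the level subtracted. The range of HIRD11 between arrays was 0.42 log2 after quantile normalization and 0.056 when control probe sets were left out first, and that of COR47 was 0.11 after quantile normalization. These ranges follow from the rank of each gene on each array, by which that step sets its values. The calls of LEA, AT4G39130, AT5G27980 and DOR below background ended at the 75th percentile, with bacterial controls and without AMS (limma adjusted p from 0.0737 to 0.164). COR15A was called below at the 95th percentile (limma adjusted p = 0.0336), and both COR15 genes with the offset and with the raised level. No paired analysis was possible because all arrays form 1 group. The depth of an array is not known, and signals of a few units have no stable order.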

Other observations

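Genes whose RefSeq names mention drought, cold or salt and that stand in none of the lists above were gathered after the values were seen. Of these 6 genes 5 were above background and 1 below (limma, adjusted p under 0.05), against 45.3% above and 25.6% below over all genes tested, and the choice made after seeing the values allows nothing to be read from the count. SRC2, a protein with a C2 domain related to a cold-induced gene of soybean, had a signal of 3127, 3546 and 3167 on replicates 1 to 3 and lay 6.46 ± 0.53 log2 over background (SD, n = 3). SAT32 lay at 4.83 ± 0.87, DI19 at 4.59 ± 0.53 and SIS at 2.93 ± 0.83. COR27, a cold-induced gene that also follows the circadian clock, lay at 1.21 ± 0.47 (limma adjusted p = 0.0144), and its call ended without replicate 2 (0.205 by limma), without replicate 3 and without a variance trend (0.0568 by limma for each), at the 95th percentile (0.0871 by limma) and with the raised level (0.686 by limma). DOR, an F-box gene named as a repressor of drought tolerance, had a signal of 9.63, 15.5 and 1.74 and lay at -2.55 ± 1.97 (limma adjusted p = 0.0135), a call that ended without replicate 3 (0.243 by limma).

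Among the 33 measured dehydrins and other LEA genes beside HIRD11 and COR47, 8 lay over 32-fold above background on every array. That is a larger share than the 3.02% of all genes tested. That limit was set after the values were seen, so the counts carry no test.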
